A study of Rattus norvegicus with 13 samples.

Results

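The nuclear genes of the mitochondrial respiratory chain were followed in rat brain, complex by complex. They were taken by symbol from the platform annotation (Nduf with a letter and number, Sdha to Sdhd, Uqcr, Cyc1, Cycs, Cox4 to Cox8, and Atp5), from probe sets with a single gene symbol. On these arrays many short probes report on each transcript, and their combined value is called a probe set. The probe set with the highest mean over the 13 arrays stood for each gene, which gave 77 genes of the 14506 with such a probe set. They comprised 33 genes of complex I, 4 of complex II, 7 of complex III, cytochrome c, 16 of complex IV and 16 of complex V. Complexes were assigned by symbol alone, and 2 entries, Ndufs6-ps1 and Cox6c-ps1, are annotated as pseudogenes in the gene table used. Cyc1, Cox6b1, Cox7a1 and the 13 subunits that mitochondrial DNA encodes were not analysed here.

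The arrays measured RNA of whole brain without the cerebellum from male Fischer F344 offspring aged 15 months. The mothers of the fructose group (6 arrays) received a high fructose diet, and those of the control group (7 arrays) a control diet, from gestation day 1 through lactation. Both groups were weaned on day 20 and then ate chow, so the offspring's own diet after weaning was alike. The labels give no litter, and do not say that each array is a separate animal, so every p-value measures only the spread between these samples, which may be technical.

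The respiratory chain passes electrons from NADH and succinate to oxygen. Complex I takes them from NADH and complex II from succinate, complex III hands them to cytochrome c, and complex IV gives them to oxygen. The proton gradient that complexes I, III and IV build up drives complex V, the ATP synthase. Neurons depend heavily on this pathway for the ATP that ion pumping and synaptic transmission use. Most subunits are encoded in the nucleus, and the transcription factors NRF1, GABP (of the ETS family) and YY1 are known regulators of many of these genes in mammals.

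Promoter windows show which of these regulators' motifs the genes carry. RefSeq windows of build GRCr8, with 250 bases before and 50 after the gene start of the table, were found for 67 of the 77 genes. Both strands were searched for 9 patterns, and which of them to describe was chosen after their counts were seen. The NRF1 pattern, GCGCA and GCGC around any 1 base, was in 13 windows (19.4%), against 4.25% of all 33469 windows and 7.25% of the 12519 windows of genes on the array. The ETS pattern CCGGAAG was in 20 windows (29.9%), against 8.75% of all windows and 12.9% of those of array genes. The YY1 pattern AAGATGGC was in 13 windows (19.4%), against 3.17% and 4.15%. At least 1 of these 3 was in 38 windows (56.7%), against 14.6% of all windows and 21.4% of those of array genes.

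The other 6 patterns included longer or narrower forms of the same motifs. The NRF1 pattern with T before and A after it was in 5 windows, and with T as its free base in 4, while ACTTCCGG was in 7 and AAGATGGCG in 8. Each of those shares (7.46%, 5.97%, 10.4% and 11.9%) was above that of array genes (1.84%, 1.37%, 5.91% and 2.57%). The general promoter patterns did not stand above the background, with TATAAA in 5 windows (7.46%, against 11.6% of array genes) and CCAAT in 24 (35.8%, against 38.2%). By complex, the NRF1 pattern was in 6 of 30 windows of complex I, 5 of 15 of complex V and 0 of 12 of complex IV. The ETS pattern was in 4 of 12 windows of complex IV and 3 of 5 of complex III. A match describes letters only and says nothing of binding in these brains.

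Printed here are 4 windows, of Ndufb4, Ndufs5, Atp5mg and Atp5me, chosen after the values were seen among the genes with the smallest p-values of complexes I and V. All 4 carry a match, which not every window did, and Ndufa2, Atp5mk and Atp5f1e, with smaller p-values than Atp5me, are not printed. The 4 windows let a reader see the motifs in place, and capitals mark the matches to the 3 patterns. Sequences run 5′ to 3′ on the gene's strand, and positions count from 0 at the table's start of the gene, which for Ndufs5 and Atp5me lies inside the gene's outer bounds in the same annotation.
Ndufb4 (chr11:76568928-76569227, plus strand): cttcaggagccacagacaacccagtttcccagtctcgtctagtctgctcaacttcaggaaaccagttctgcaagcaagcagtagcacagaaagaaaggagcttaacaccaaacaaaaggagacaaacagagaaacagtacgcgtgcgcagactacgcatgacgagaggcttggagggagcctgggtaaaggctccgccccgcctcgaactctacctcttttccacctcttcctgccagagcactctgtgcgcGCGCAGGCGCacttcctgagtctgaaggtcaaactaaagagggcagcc
Ndufs5 (chr5:141264353-141264652, minus strand): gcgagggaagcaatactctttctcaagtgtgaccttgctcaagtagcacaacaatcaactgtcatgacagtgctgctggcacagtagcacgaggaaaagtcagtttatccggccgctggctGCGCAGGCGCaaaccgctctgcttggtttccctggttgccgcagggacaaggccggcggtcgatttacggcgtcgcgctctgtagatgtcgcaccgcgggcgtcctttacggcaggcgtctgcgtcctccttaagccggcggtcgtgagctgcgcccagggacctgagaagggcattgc
Atp5mg (chr8:54130358-54130657, minus strand): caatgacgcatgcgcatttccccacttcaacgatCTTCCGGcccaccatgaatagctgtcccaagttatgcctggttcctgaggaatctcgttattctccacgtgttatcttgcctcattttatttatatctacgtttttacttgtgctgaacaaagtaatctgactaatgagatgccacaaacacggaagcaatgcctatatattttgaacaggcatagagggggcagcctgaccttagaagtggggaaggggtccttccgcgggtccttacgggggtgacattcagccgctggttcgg
Atp5me (chr14:1464610-1464909, plus strand): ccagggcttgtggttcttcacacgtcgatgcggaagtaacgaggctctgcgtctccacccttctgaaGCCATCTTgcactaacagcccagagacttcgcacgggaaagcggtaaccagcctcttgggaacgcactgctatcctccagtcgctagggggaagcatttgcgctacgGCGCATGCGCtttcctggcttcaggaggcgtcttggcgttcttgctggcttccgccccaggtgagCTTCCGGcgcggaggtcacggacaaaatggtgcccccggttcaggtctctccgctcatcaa
Ndufb4 carries 1 NRF1 match at position 2, and Ndufs5 carries 1 at position -129. Atp5mg has an ETS match at position -216. Atp5me holds all 3 patterns, YY1 at position -183, NRF1 at -76 and ETS at -11.

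No respiratory chain gene was called different between the offspring of fructose-fed and control mothers after correction for all probe sets. With limma, 0 of the 77 genes passed an adjusted p under 0.05, and the background was 0 of 15633 probe sets (0.0%). The adjusted p was 0.9998 for every one of the 77 genes. At an unadjusted p under 0.05 there were 5 of the 77 (6.49%), against 348 probe sets overall (2.23%). Ndufb4 and Ndufs6-ps1 were higher in the fructose group (background 1.33%), and Ndufa2, Cox6b2 and Atp5mg were lower (background 0.896%). The groups overlapped for all 77 genes, and for all but 6 of the probe sets tested (0.0384%).

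The differences were small and closely bounded. They lay between -0.17 (Ndufa10) and 0.14 (Ndufs6-ps1) on the log2 scale, fructose minus control, or folds of 0.888 to 1.101. For 69 of the 77 genes (89.6%, background 84.6%) the 95% interval lay within a 1.2-fold change in either direction. For all 77 it lay within 1.5-fold. The plot of differences by gene shows intervals of all complexes on both sides of 0.

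**Figure D1:**
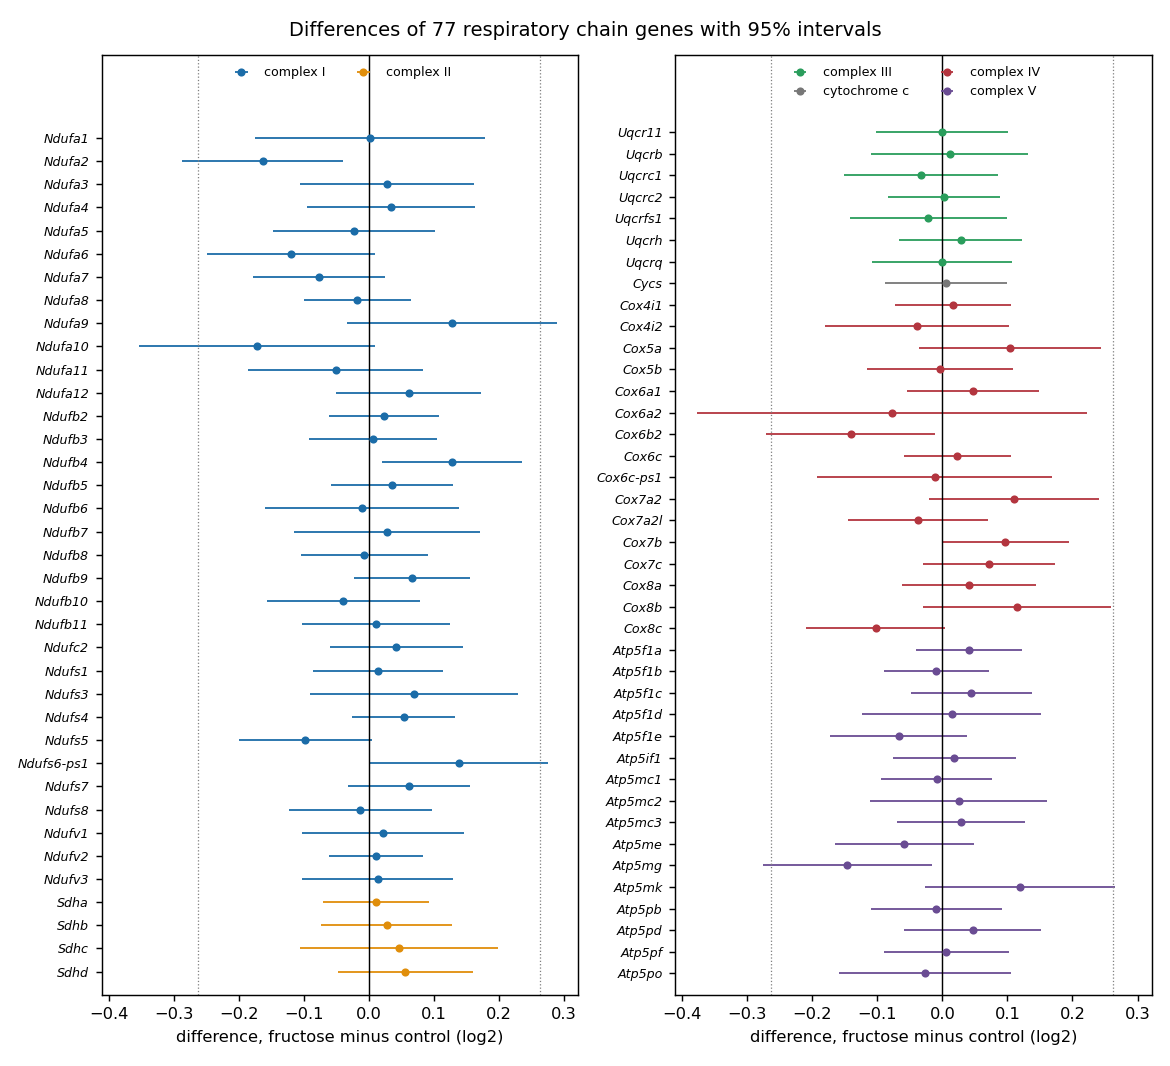
Log2 difference of each of the 77 genes, fructose minus control (horizontal axis), with bars for the limma 95% interval, colours for the complex and dotted lines at a 1.2-fold change. The interval leaves 0 out for Ndufa2, Cox6b2 and Atp5mg (lower in fructose) and for Ndufb4 and Ndufs6-ps1 (higher), all before correction, and is widest for Cox6a2.

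Counted by sign, 47 of the 77 genes (61.0%) had a higher mean in the fructose group, where 54.1% of all probe sets did. The median difference was 0.011 over the genes and 0.0056 over all probe sets. This sign count depended on a few control arrays and on the scaling. It was 32 without control replicates 1 and 2 (background 51.4%), 58 without control replicate 5 (55.2%), 29 once the arrays were quantile normalized again (49.6%), and 31 with cyclic loess scaling (49.3%). Without control replicates 1 and 2 the median was -0.010, against 0.0022 for all probe sets. In that fit 6 genes (7.79%) had an unadjusted p under 0.05, against 717 probe sets (4.59%), and 1 of the 6, Ndufa2, was among the 5 named above. The sign also went with signal strength. Among all 1992 probe sets with a mean signal of 10 or more, a limit chosen after the data were seen, 70.5% were higher in fructose, and 36 of the 49 respiratory chain genes this bright were. With control replicates 1 and 2 left out, these counts were 1073 of 1992 and 23 of 49, with medians of 0.0052 and -0.00093.

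Complex I, the NADH dehydrogenase and the largest complex, had 21 of 33 genes (63.6%) higher in the fructose group, where 54.1% of all probe sets were. Its median difference was 0.014. The count was 13 and the median -0.016 when control replicates 1 and 2 were left out. Its 3 genes at an unadjusted p under 0.05 (9.09%, against 2.23% of all probe sets) were Ndufa2, Ndufb4 and Ndufs6-ps1.

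Ndufa2, a small accessory subunit of the arm that binds NADH, gave the smallest p of the 77 genes. Its log2 signal was 8.43 at the lowest, 8.65 at the median and 8.70 at the highest in fructose arrays, against 8.64, 8.79 and 8.93 in control arrays. All 6 fructose arrays lay below the control mean, and 3 of them below the lowest control array. The others lay inside the control range, so the groups overlapped. The difference was -0.16 ± 0.058 (SE), with a 95% interval of -0.29 to -0.039 and an unadjusted p of 0.0133 (limma, adjusted p = 0.9998). Leaving out each array in turn kept it between -0.18 and -0.13. The 10 other alternatives of the closing section gave -0.18 to -0.11. With array weights, and with the replicate number as a block, the unadjusted p was not under 0.05 (limma).

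Ndufb4, an accessory subunit of the membrane arm, ran the other way. Its signal was 9.93, 10.04 and 10.10 (lowest, median, highest) in fructose arrays, against 9.74, 9.88 and 10.01 in control arrays. Every fructose array lay above the control mean and 4 above the highest control array. The difference was 0.13 ± 0.050 (SE), with a 95% interval of 0.021 to 0.24 and an unadjusted p of 0.0227 (limma, adjusted p = 0.9998). Its second probe set differed by 0.16 in the same direction. Without control replicates 1 and 2 the difference of the first was 0.11 (unadjusted p = 0.0623, limma).

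Ndufs6-ps1 is annotated as a pseudogene of Ndufs6, an accessory subunit that joins the NADH-binding module late in assembly. Whether its probes also read the transcript of Ndufs6, not analysed here, was not tested. The signal was 9.57, 9.72 and 9.85 in fructose arrays, against 9.40, 9.63 and 9.73 in control arrays. The 3 lowest of the 13 values were the control replicates 1, 2 and 3, and the groups overlapped. The difference was 0.14 ± 0.064 (unadjusted p = 0.0475, limma), and 0.077 without control replicates 1 and 2.

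Ndufs5, a subunit on the intermembrane side of the membrane arm, had signals of 10.50, 10.59 and 10.76 in fructose arrays, against 10.60, 10.71 and 10.81 in control arrays. Of the 6 fructose arrays, 3 lay below the lowest control array and 1 above the control mean. The difference was -0.098 ± 0.048 (95% interval -0.20 to 0.0043, unadjusted p = 0.0592, limma), and its second probe set differed by -0.095.

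None of the core subunits of complex I measured here, most of which carry its flavin or iron-sulfur clusters, had an interval that left out 0. The log2 difference was 0.014 for Ndufs1, 0.070 for Ndufs3, 0.062 for Ndufs7, -0.013 for Ndufs8, 0.021 for Ndufv1 and 0.011 for Ndufv2. Ndufv1 binds the flavin that accepts electrons from NADH, and Ndufs7 and Ndufs8 hold the clusters nearest to ubiquinone. For Ndufv2 the interval was narrow, from -0.062 to 0.083. For Ndufs3 it ran from -0.091 to 0.23, and the difference was -0.016 without control replicates 1 and 2. All 6 fructose arrays lay above the control mean for Ndufs7.

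Among the accessory subunits, the longest distances from 0 beside the genes above belonged to Ndufa10 (-0.17), Ndufa9 (0.13) and Ndufa6 (-0.12). The Ndufa10 probe set was dim, with a mean signal of 8.005, and its p was 0.0617 (limma, unadjusted). A probe set that the annotation shares between Ndufa10 and Ndufa10l1 had means of 11.01 in fructose and 11.02 in control, a difference of -0.0049. Ndufa9, which lies near the ubiquinone site, had signals of 10.25, 10.32 and 10.39 in fructose arrays, against 9.86, 10.27 and 10.37 in control arrays. Its difference was 0.021 without control replicates 1 and 2. Ndufa6, a subunit that binds the mitochondrial acyl carrier protein, had an SD of 0.154 in fructose and 0.0512 in control.

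The remaining Ndufa genes (Ndufa1, Ndufa3, Ndufa4, Ndufa5, Ndufa7, Ndufa8, Ndufa11 and Ndufa12) differed by -0.076 (Ndufa7) to 0.061 (Ndufa12). Ndufa4 is counted here by its name, although in mammals it is found in complex IV, and it differed by 0.034. The remaining Ndufb and Ndufc genes (Ndufb2, Ndufb3, Ndufb5 to Ndufb11 and Ndufc2) belong to the membrane arm and differed by -0.039 (Ndufb10) to 0.066 (Ndufb9). Ndufs4, an accessory subunit of the NADH-binding module, differed by 0.054, with 4 fructose arrays above the highest control array. Ndufv3 differed by 0.014, and its second probe set by -0.012.

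Complex II, succinate dehydrogenase, is both a respiratory complex and an enzyme of the TCA cycle, and the nucleus encodes all of it. All 4 genes had a positive difference, as did 54.1% of all probe sets, with a median of 0.037. None had an unadjusted p under 0.05, against 2.23% of all probe sets. Without control replicates 1 and 2, 2 of the 4 were positive and the median was 0.0047. The log2 difference was 0.011 ± 0.038 for Sdha, the flavoprotein, and 0.028 ± 0.047 for Sdhb, the iron-sulfur subunit. The membrane anchors Sdhc and Sdhd differed by 0.046 ± 0.072 and 0.056 ± 0.049 (SE each), and the smallest unadjusted p was 0.268 (Sdhd, limma).

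The spread within the groups was uneven for 2 of the complex II genes. Sdhc had signals of 11.28, 11.33 and 11.37 in fructose arrays (SD 0.0309), against 11.01, 11.35 and 11.48 in control arrays (SD 0.182). All fructose values of Sdhc fell inside the control range. For Sdhb, 5 of the 6 fructose arrays carried the identical deposited value of 10.18 and the other 10.21, against 10.04, 10.11 and 10.35 in control arrays. How identical values arose is not given in the sources used here, and the SD of Sdhb in fructose (0.0108) rests on them.

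Complex III, the cytochrome bc1 complex, had 3 of 7 genes higher in fructose (54.1% of all probe sets were) and a median difference of -0.00026. These were 2 genes and a median of -0.024 without control replicates 1 and 2. No gene had an unadjusted p under 0.05, against 2.23% of all probe sets. Uqcrfs1 carries the Rieske iron-sulfur cluster and differed by -0.022 ± 0.056. Its signals were 9.03, 9.15 and 9.36 in fructose arrays, against 9.09, 9.18 and 9.33 in control arrays, so the fructose range enclosed the control range. The core proteins Uqcrc1 and Uqcrc2 differed by -0.033 ± 0.056 and 0.0023 ± 0.041. Uqcrh, the hinge protein beside cytochrome c1, differed by 0.028 ± 0.044 and Uqcrb, a subunit near the ubiquinone site, by 0.011 ± 0.056. The small subunits Uqcrq and Uqcr11 differed by -0.00026 and -0.00097.

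Cytochrome c (Cycs), the mobile carrier between complexes III and IV, had signals of 11.68, 11.72 and 11.77 in fructose arrays, against 11.63, 11.69 and 11.85 in control arrays. The fructose arrays fell inside the control range. The difference was 0.0056 ± 0.044 (95% interval -0.088 to 0.099, unadjusted p = 0.9002, limma), and 0.016 by its second probe set.

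Complex IV, cytochrome c oxidase, had 9 of 16 genes higher in fructose (54.1% of all probe sets were) and a median difference of 0.020. There were again 9, with a median of 0.0074, without control replicates 1 and 2. An unadjusted p under 0.05 was found for 1 gene (6.25%, against 2.23% of all probe sets). Cox7b, a subunit present in most tissues, had signals of 11.60, 11.63 and 11.78 in fructose arrays, against 11.44, 11.58 and 11.64 in control arrays. All 6 fructose arrays lay above the control mean and 2 above the highest control array. The difference was 0.097 ± 0.046 (95% interval -0.00054 to 0.19, unadjusted p = 0.0511, limma).

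Cox7a2, the broadly expressed isoform of its subunit, had signals of 11.83, 11.88 and 11.94 in fructose arrays, against 11.51, 11.81 and 11.96 in control arrays. The low end of the control range was control replicate 1. The difference was 0.11 ± 0.061 (unadjusted p = 0.0916, limma), 0.12 by the second probe set, and 0.066 without control replicate 1. Cox5a, which with Cox5b belongs to the matrix side of the enzyme, differed by 0.10 ± 0.066 and its second probe set by 0.082, and the value was 0.045 without control replicates 1 and 2.

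The other broadly expressed subunits differed by 0.016 (Cox4i1), -0.0041 (Cox5b), 0.048 (Cox6a1), 0.023 (Cox6c), 0.072 (Cox7c) and 0.041 (Cox8a). Cox7a2l, known as a factor that joins complexes III and IV into supercomplexes, differed by -0.037. With the tissue-restricted isoforms and the pseudogene set aside, a trimming made after the values were seen, 8 of the 10 remaining genes were higher in fructose. Their median difference was 0.044, and 0.018 without control replicates 1 and 2. These 10 genes were bright, with a median signal of 11.68. Of all probe sets 54.1% were higher in fructose. Among probe sets with a mean signal of 10 or more it was 70.5%, with a median difference of 0.024.

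The isoforms known in mammals from other tissues had dimmer probe sets, and signals of different probe sets cannot be ranked against each other. Cox6b2, a testis isoform, had signals of 6.89, 7.04 and 7.14 in fructose arrays, against 7.07, 7.09 and 7.36 in control arrays. Of the 6 fructose arrays 5 lay below the lowest control array, and the 2 highest control arrays were replicates 1 and 2. The difference was -0.14 ± 0.061 (95% interval -0.27 to -0.012, unadjusted p = 0.0348, limma, adjusted p = 0.9998), and -0.069 without control replicates 1 and 2. Cox8c, likewise a testis isoform, differed by -0.10 ± 0.050 (unadjusted p = 0.0583, limma). The muscle isoform Cox8b differed by 0.11, the lung isoform Cox4i2 by -0.039 and the pseudogene Cox6c-ps1 by -0.012.

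Cox6a2, the heart and skeletal muscle isoform, varied most of all 77 genes. Its signals were 7.90, 8.29 and 8.55 in fructose arrays (SD 0.232), against 7.84, 8.21 and 8.71 in control arrays (SD 0.328). The fructose values fell inside the control range, and the difference of -0.077 had an interval of -0.38 to 0.22. The list of striated muscle markers had 4 of 12 measured markers higher in fructose, with list means of 7.30 to 7.44 in fructose arrays and 7.32 to 7.56 in control arrays. It was 6 of 12 without control replicates 1 and 2.

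Complex V, the ATP synthase, had 9 of 16 genes higher in fructose (54.1% of all probe sets were) and a median difference of 0.010. Without control replicates 1 and 2 these were 5 genes and a median of -0.024. With all arrays, 1 gene had an unadjusted p under 0.05 (6.25%, against 2.23% of all probe sets). Atp5mg encodes subunit g, which sits where synthase dimers bend the inner membrane. Its signals were 9.30, 9.44 and 9.62 in fructose arrays, against 9.43, 9.63 and 9.73 in control arrays. Of the 6 fructose arrays 3 lay below the lowest control array and 1 above the control mean. The difference was -0.15 ± 0.061 (95% interval -0.28 to -0.016, unadjusted p = 0.0297, limma, adjusted p = 0.9998). It was -0.13 without control replicates 1 and 2 (unadjusted p = 0.0635, limma).

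Atp5mk, a small membrane subunit of the same region, had signals of 11.21, 11.27 and 11.63 in fructose arrays, against 11.07, 11.26 and 11.32 in control arrays. The fructose range was drawn upward by fructose replicate 4, without which the difference of 0.12 ± 0.069 became 0.063. Atp5me (subunit e) and Atp5f1e (the epsilon subunit) differed by -0.058 ± 0.050 and -0.067 ± 0.049. For both, all 6 fructose arrays lay below the control mean and inside the control range. Without control replicates 1 and 2 the differences were -0.11 for Atp5me and -0.12 for Atp5f1e, with unadjusted p-values of 0.0133 and 0.0173 (limma).

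For the catalytic head of the synthase no interval left out 0. The alpha and beta subunits Atp5f1a and Atp5f1b differed by 0.042 and -0.0092, and the central stalk subunits Atp5f1c and Atp5f1d by 0.045 and 0.014. The stalk subunits Atp5pb, Atp5pd, Atp5pf and Atp5po, which hold the head in place, differed by -0.0096, 0.046, 0.0059 and -0.026. Atp5mc1, Atp5mc2 and Atp5mc3 encode the same mature subunit c of the rotor ring and differed by -0.0090, 0.025 and 0.028. Atp5if1, the inhibitor that stops the synthase from running backward, differed by 0.018.

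**Figure D2:**
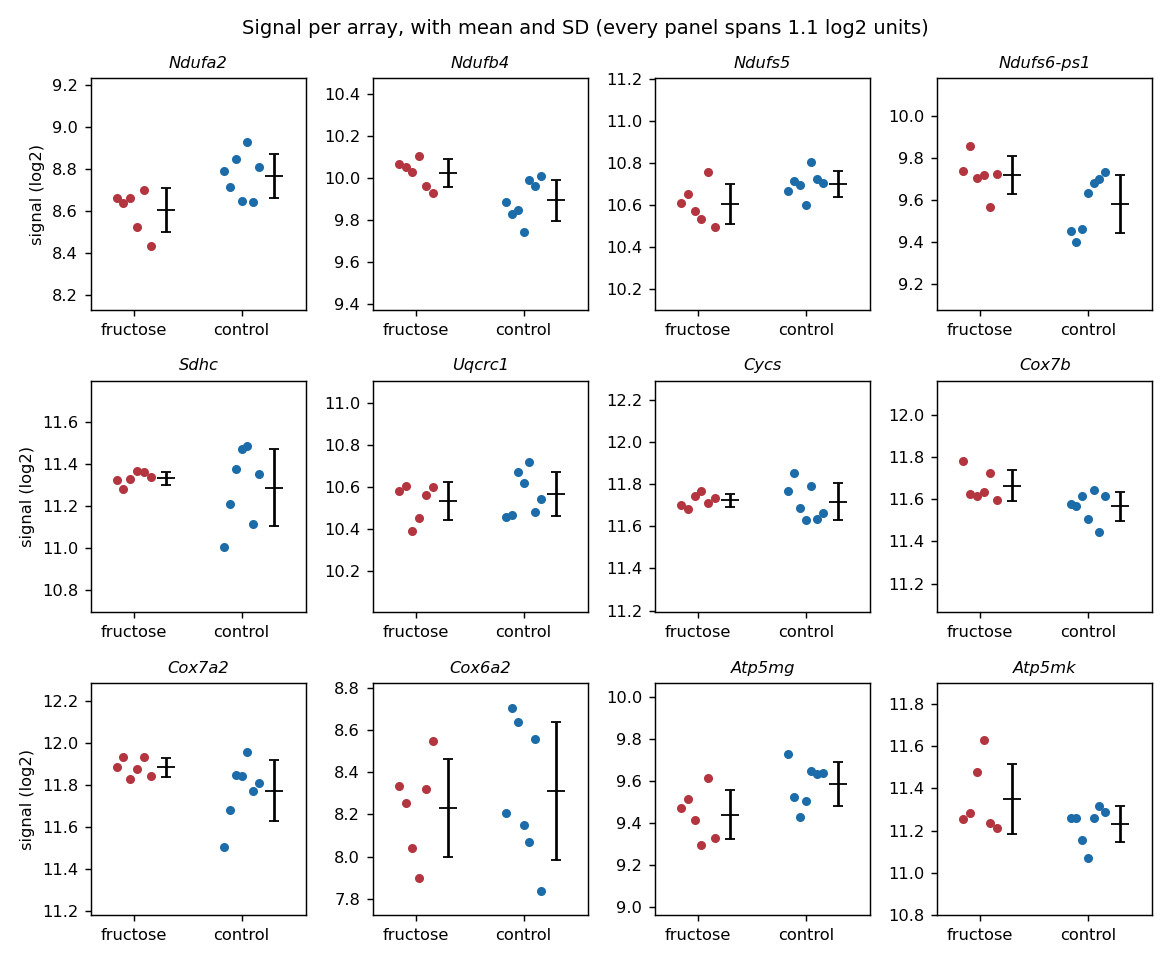
Log2 signal of 12 genes in the 6 fructose arrays (red) and the 7 control arrays (blue), with group mean and SD in black, and every panel spanning the same height. The groups overlap in all 12 panels, and the control values are more scattered than the fructose values for Sdhc and Cox7a2.

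Of the 77 genes, 12 had more than 1 probe set. The signs of their probe sets were the same for 10 of the 12, and no pair lay further apart than 0.035. The exceptions were Ndufv3 and Atp5mc2, whose differences were all near 0.

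The level of the whole set varied from array to array, mainly among the control arrays. Each gene's value was set against its own mean over the 13 arrays, and the median of these deviations was taken over the 77 genes. It was -0.0091, -0.0030, 0.0025, 0.010, 0.028 and 0.0016 in fructose replicates 1, 2, 3, 4, 7 and 8, a range of 0.037. In control replicates 1, 2, 3, 4, 5, 7 and 8 it was -0.064, -0.067, 0.031, -0.014, 0.105, -0.048 and 0.0074, a range of 0.173. The control arrays thus held both the highest and the lowest levels of the set.

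Control replicate 5 stood highest for the set as a whole. There 70 of the 77 genes lay above their own mean, among them all 33 of complex I, all 4 of complex II, all 7 of complex III, 10 of 16 of complex IV and 15 of 16 of complex V. It was the highest of the 13 arrays for 36 genes (46.8%), and for 14.8% of all probe sets. The median deviation there was 0.12 for complex I, 0.11 for complexes II and III, 0.038 for complex IV and 0.125 for complex V. All probe sets had 0.0066, and the bright ones (mean signal of 10 or more) 0.042. After cyclic loess the 77 genes still had 0.056 in this array, the highest of the 13. Complex IV, on the deposited values, was higher in fructose replicate 7, at 0.047.

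On the deposited values the low arrays were control replicates 1, 2 and 7. They held the lowest value for 16 (20.8%), 17 (22.1%) and 17 (22.1%) of the genes, against 10.9%, 18.3% and 9.19% of all probe sets. Bright probe sets were below their means there too, at -0.010, -0.081 and -0.011. After cyclic loess the 77 genes were at -0.028, 0.024 and -0.031 in these arrays, so replicate 2 was then not low. Control replicates 1 and 2 also had the narrowest distributions of all values, with interquartile ranges of 2.19 and 2.15, against 2.26 to 2.50 in the other arrays. Array medians lay between 7.99 and 8.07. No scan or processing date was in the sources used here, so no batch could be set against these arrays.

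**Figure D3:**
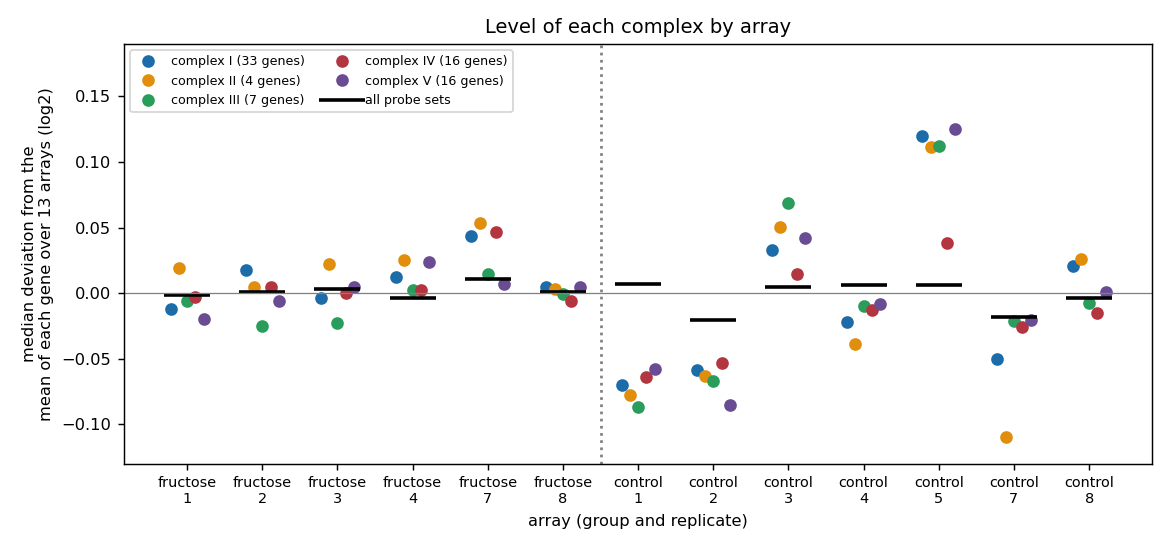
Median deviation of the genes of complexes I to V (coloured points) and of all probe sets (black bars) in each array, from each gene's mean over 13 arrays, in log2 units. The complexes lie between -0.025 and 0.053 in the 6 fructose arrays, and away from 0 in control replicate 5 (up) and control replicates 1 and 2 (down), while in control replicate 7 complex II is at -0.110 and complex I at -0.050.

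Cell type markers in the same arrays varied as well, and their part in the levels of respiratory chain genes was not tested. In control replicate 5, median deviations were -0.447 for oligodendrocyte, -0.334 for meningeal, -0.254 for choroid plexus, -0.037 for astrocyte and 0.054 for neuronal markers. Microglial markers were there at 0.031, endothelial and mural markers at -0.019, blood markers at -0.132 and striated muscle markers at -0.092. In control replicates 1, 2 and 7 respiratory chain genes were low on the deposited values. Astrocyte markers were at -0.206, -0.177 and -0.047 in these arrays, and neuronal markers at -0.029, -0.056 and -0.058. Oligodendrocyte markers were there at -0.068, 0.248 and -0.255, microglial markers at -0.145, -0.204 and 0.093, and meningeal markers at -0.306, -0.322 and 0.189. Endothelial and mural markers were at -0.195, -0.056 and 0.0043, and choroid plexus markers at 0.056, 0.068 and -0.016. Blood markers were at -0.018, 0.119 and 0.154, and striated muscle markers at 0.150, 0.102 and -0.054. Neuronal and astrocyte markers were thus below their means in all 3 of these arrays, as were bright probe sets (-0.010, -0.081 and -0.011). Fructose replicates 1, 2, 3, 4, 7 and 8 had neuronal markers at -0.0023, 0.026, 0.067, -0.020, 0.052 and 0.031. Astrocyte markers were there at 0.105, 0.014, -0.0028, 0.110, 0.068 and 0.014, and bright probe sets at 0.0036, 0.0069, 0.020, 0.017, 0.036 and -0.018. In control replicates 3, 4 and 8 neuronal markers were at -0.0064, -0.029 and -0.0039, and astrocyte markers at 0.018, -0.010 and 0.128. Bright probe sets were at 0.0050, -0.0047 and 0.0089. In bulk tissue, fewer cells of a type and less RNA per cell cannot be told apart. Between the groups, 54.1% of all probe sets were higher in fructose. Of the neuronal markers 12 of 14 were higher (median difference 0.031). Their list means were 10.95 to 11.07 in fructose arrays and 10.87 to 11.10 in control arrays. For oligodendrocytes 7 of 10 were higher (median 0.069), with list means of 9.90 to 10.53 in fructose arrays and 9.75 to 10.53 in control arrays. Higher markers numbered 8 of 11 for astrocytes (median 0.089), 3 of 11 for microglia (-0.032), 9 of 11 for endothelium and mural cells (0.066), 2 of 7 for choroid plexus (-0.043), 8 of 9 for meninges (0.095) and 3 of 6 for blood (-0.019). When control replicates 1 and 2 were left out, the counts were 9 of 14 for neurons (0.025), 9 of 10 for oligodendrocytes (0.090), 6 of 11 for astrocytes (0.024) and 0 of 11 for microglia (-0.10). They were then 7 of 11 for endothelium and mural cells (0.013), 3 of 7 for choroid plexus (-0.00022), 5 of 9 for meninges (0.0071) and 2 of 6 for blood (-0.015). In that fit 3 of the 11 microglial markers had an unadjusted p under 0.05, against 4.59% of all probe sets. With all 13 arrays no marker passed an adjusted p under 0.05 (limma). At an unadjusted p under 0.05 there was 1 of the 14 neuronal markers, Rbfox3, and none in the other marker lists. Of all probe sets, 2.23% reached that limit.

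Values were closer together in the fructose group. The median SD of the 77 genes was 0.058 in fructose arrays and 0.097 in control arrays, while over all probe sets it was 0.090 in fructose and 0.124 in control. The SD was lower in fructose for 61 of the 77 genes (79.2%), where it was for 70.8% of all probe sets. With the control SD taken without replicates 1 and 2 the count was 58, and without replicate 5 it was 54. The median control SD was then 0.0893 and 0.0885 over the genes, and 0.103 and 0.120 over all probe sets. The matching shares of all probe sets are not given here, so these 2 recounts have no background. The comparison of spread was added after the values were seen and carries no test. Exactly equal deposited values, found in at least 2 arrays for 17 of the 77 genes and for 41.3% of all probe sets, lower an SD. Without the 2 genes that had 3 or more equal values in a group, the count was 59 of 75.

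**Figure D4:**
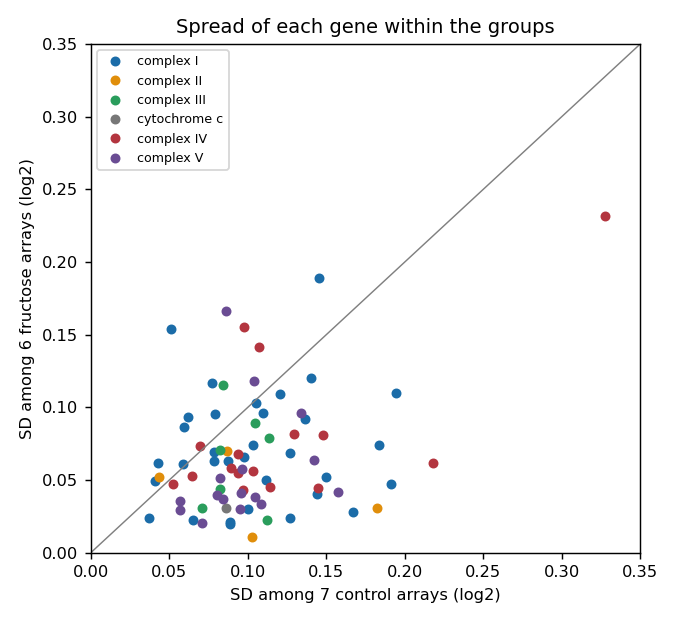
SD of each of the 77 genes among the 6 fructose arrays (vertical axis) against that among the 7 control arrays (horizontal axis), both in log2 units, with a line of equality. Most points lie below the line, and Cox6a2 is the complex IV point far to the right.

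The genes that build and regulate the chain gave no call either, with 0 of each list at an adjusted p under 0.05 (limma). At an unadjusted p under 0.05 there was 1 gene, Polg2, of the 18 measured factors of mitochondrial transcription and biogenesis. No other measured list had a gene at that limit, which 2.23% of all probe sets reached. Of all probe sets, 54.1% were higher in fructose. Assembly factors place cofactors and join subunits, and those of complex I had 5 of 9 measured genes higher in fructose (median 0.016). For complexes II, III, IV and V the counts were 2 of 3 (0.035), 4 of 7 (0.0058), 8 of 16 (-0.00053) and 4 of 4 (0.061). Leaving out control replicates 1 and 2 gave 2 of 9 for complex I (-0.0099), 1 of 3 for complex II (-0.071), 4 of 7 for complex III (0.0064), 5 of 16 for complex IV (-0.027) and 2 of 4 for complex V (0.012). The gene nearest to the threshold in these lists was Ndufaf4, a complex I assembly factor, with a difference of 0.090 (unadjusted p = 0.0618, limma). Sdhaf3 (0.052), Lyrm7 (0.10), Cox20 (0.18) and Fmc1 (0.069) had the smallest p in the lists of complexes II, III, IV and V. Ndufab1, the acyl carrier protein that is also a complex I subunit but whose symbol the rule leaves out, differed by 0.00091.

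TCA cycle enzymes feed NADH and succinate to the chain. Of these, 9 of 11 measured genes were higher in fructose (54.1% of all probe sets), with a median of 0.014. The count was 6 of 11 (51.4% of all probe sets) with a median of 0.0054 once control replicates 1 and 2 were left out. The smallest p was that of Ogdh, part of the oxoglutarate dehydrogenase complex, with a difference of 0.085 (unadjusted p = 0.0940, limma). Factors of mitochondrial transcription and biogenesis had 11 of 18 higher, with a median of 0.0086, and 9 of 18 with a median of -0.0051 after the same omission. Polg2, the accessory subunit of the mitochondrial DNA polymerase, had an unadjusted p of 0.0432 (limma). Its signals were 6.68, 6.80 and 6.91 in fructose arrays, against 6.82, 6.90 and 7.005 in control arrays, a difference of -0.11 with overlapping groups.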

How the data were processed

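RNA of 13 samples was hybridised to Affymetrix rat gene arrays. The authors deposited log2 signals for 29214 probe sets, and per the submitters' processing notes the tools were RMA and R 3.0.1. Of these, 15310 probe sets had 1 gene symbol in the platform annotation and 323 had several. All 13 value columns were used (0 unused). The 15633 with a gene were fitted by the limma functions lmFit and eBayes (version 3.58.1, R 4.3.3; fructose minus control, Benjamini-Hochberg adjustment over all 15633, threshold 0.05) without a filter on dim values. Levels were described by median deviations from gene means. The alternatives are given in the closing section, and the limma script was tested on simulated data. The number of arrays limits the precision, and the table held no detection p-values.

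The genes, lists and tests were chosen with earlier results of these data known. Statistics were given for up to 4 genes of each complex with the smallest unadjusted p, 1 gene of each pathway list, Ndufab1 and tissue-restricted isoforms, and levels or differences for every gene. Further genes with large differences were named after their values were seen.

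Replicate numbers are shared by 6 pairs of arrays. Deviations from group means correlated between same-numbered arrays at -0.335 to 0.187, so the numbers were not taken as pairs. All 77 Entrez identifiers matched RefSeq genes of GRCr8.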

Additional observations from a re-analysis of the deposited data

Results flagged for a closer look

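In groups of 6 or 7 arrays, 1 array stood apart from the rest by the gap between it and its neighbour relative to the group's range (Dixon's 95% limits) in 8 of 166 groups checked, 7 of them among the 154 groups of single genes. Chance flags about 1 in 20 groups. In the fructose group, Sdhb was 10.21 in replicate 3, where the other arrays shared 10.18. Sdhd was 9.72 in replicate 7, next to 9.58. Uqcrc2 was 11.06 in replicate 4, next to 11.002. Cox4i2 was 6.50 in replicate 3, next to 6.75. Cox6c was 12.91 in replicate 7, next to 12.80. Atp5pd was 10.90 in replicate 8, next to 10.78. The median deviation of complex IV was 0.047 in fructose replicate 7, next to 0.0048. In the control group, Ndufs1 was 10.51 in replicate 5, next to 10.34.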

How the results depend on the processing

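Under all 23 alternatives, 13 of which leave out 1 array each, 0 probe sets passed an adjusted p under 0.05 with limma, and between 2 and 10 of the respiratory chain genes had an unadjusted p under 0.05, where 1.59% to 4.86% of all probe sets did (the 10 of 77 under cyclic loess beside 3.13%). The count of genes higher in fructose, 47 of 77, was 29 when the arrays were quantile normalized anew, 31 under cyclic loess, and 42 to 58 when each array was left out in turn. Their median difference was 0.0025 to 0.033 over the same omissions. With the replicate number as a block, over the 12 arrays with a shared number, 0 genes were called, 58 of 77 were higher, the median was 0.033 and 4 genes had an unadjusted p under 0.05 (1.98% of all probe sets). That fit leaves out control replicate 5 and gave the same differences as leaving it out alone. The sign turned under at least 1 alternative for 41 of the 77 genes, and 14 of the 21 genes with full statistics kept theirs throughout. Among the other 7, Sdhc was -0.0059 with array weights, -0.026 without control replicates 1 and 2, and -0.00055 to 0.079 when each array was left out in turn. Sdhb was -0.0059 without control replicates 1 and 2. Sdha was -0.012 after quantile normalization, -0.011 after loess, and -0.0021 to 0.031 over omissions. Uqcrh was -0.0065 after quantile normalization. Uqcrfs1 was 0.0016 with the replicate block, and -0.059 to 0.0068 over omissions. Uqcrb was -0.019 after quantile normalization, -0.013 after loess, and -0.018 to 0.033 over omissions. Cycs was -0.019 after loess, and -0.0089 to 0.028 over omissions. The cause was not tested. The recounts of SD without some control arrays were chosen after seeing the data. The filter that drops the dimmest 30% of probe sets kept 72 of the 77 genes, without Cox4i2, Cox6b2, Cox6c-ps1, Cox8b and Cox8c, which then had no value.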
